A study of Mus musculus with 21 samples.

Results

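In mouse annotation, a gene symbol that ends in Rik is a provisional name: the gene was first recorded as a full-length cDNA clone of the RIKEN collection, and the symbol keeps the clone's plate and well. The testis has long been known as a rich source of such clones, because spermatocytes and spermatids transcribe a very large part of the genome, including many genes that are little used elsewhere. Round spermatids are the haploid cells that follow meiosis; they build the acrosome and the flagellum before the chromatin is condensed, and much of the RNA that they make is stored for translation after transcription has ceased. The 200 genes described here are the most abundant Rik genes of these cells. They were chosen by their CPM, the usual abbreviation for the counts of a gene scaled by the total count on genes of its library: the 1923 gene rows with a symbol ending in Rik, of 24456 gene rows in all, were ranked by mean CPM over the 3 wild-type round spermatid libraries, and the first 200 were taken. A read was found in these 3 libraries for 1574 of the 1923.

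The counts came from total RNA of fractionated mouse spermatogenic cells in 21 libraries. For pachytene spermatocytes, round spermatids and condensing spermatids, the later haploid cells whose chromatin is being packed, there were 3 replicates of each genotype, wild type and H2al2 KO. For spermatozoa there were 2 of the wild type and 1 of the KO. H2al2 encodes H2A.L.2, a histone H2A variant of late spermatids that takes part in the replacement of histones by transition proteins and protamines. The KO construct, the strain and the age of the animals, and the animals behind each replicate, are not given in the sources used here beyond the statement that the wild-type round spermatid samples were independent biological replicates; the p-values measure the spread between these samples. In bulk fractions such as these, fewer cells of a type and less RNA per cell cannot be told apart.

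Counts on genes ranged from 2772995 to 8201682 per library (median 6872271), and the 3 spermatozoa libraries were the shallowest. H2afb1, the row that holds the H2A.L.2 gene, separated the genotypes without overlap in all fractions, being lower in KO: 190 to 199 CPM in wild-type against 19.9 to 24.6 CPM in KO round spermatids, 165 to 242 against 26.8 to 34.9 CPM in condensing spermatids, 15.95 to 42.05 against 3.29 to 5.35 CPM in pachytene spermatocytes, and 46.9 and 57.4 against 14.6 CPM in spermatozoa. The summed CPM of 13 round spermatid markers was highest in round spermatids (2579 to 2764 in wild type), and that of 12 pachytene spermatocyte markers in pachytene spermatocytes, although the latter was higher in condensing (1391 to 1609) than in round spermatids (955 to 1146). The 12 markers of elongating or condensing spermatids did not separate those fractions in KO, with sums of 25916 to 32678 CPM in KO round and 30894 to 42651 CPM in KO condensing spermatids. Markers of other cells were also seen. The 9 Sertoli cell markers summed to 403 to 671 CPM in condensing spermatids of both genotypes and to 19.6 to 71.9 CPM in the earlier fractions, and 7 peritubular myoid cell markers summed to 301 to 406 CPM in round and condensing spermatids and to 63.8 to 99.98 CPM in pachytene spermatocytes. The 10 markers of epididymis epithelium, of which Lcn5, Lcn8 and Lcn9 were at 0, summed to 2125 and 2347 CPM in wild-type spermatozoa, and 7 macrophage markers summed to 756 and 769 CPM there and to 3572 CPM in the KO spermatozoa library. Wild-type round spermatid replicates 2 and 3 were very alike, with a mean chi-square of 1.06 per gene of 100 to 1000 counts and 1.68 over the 200 genes. They differed beyond sampling noise in genes of over 10000 counts (8.76), and were kept as 2 libraries.

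The name Rik no longer fits all of the 200 genes. RefSeq annotation of the same assembly matched 141 by their symbol and 59 by an older symbol, so that 59 have since been given another name. By RefSeq gene type, 158 of the 200 were protein-coding (79%), 32 were long non-coding RNAs (16%), 8 were transcribed pseudogenes, and 1 each was a non-coding RNA pseudogene and a miscellaneous RNA. Among the other 1723 Rik genes, of which RefSeq matched 1719, the shares of the matched genes were the other way round, with 26.8% protein-coding and 70.7% long non-coding. The plates that RIKEN filled from adult testis, told by the first digits of the symbol, gave 164 of the 200 (82%), most of them with the plate number 1700. Of the other Rik genes, 43.6% came from these plates. Only 1 of the 200 was X-linked (0.5%), against 83 of the 1719 matched other Rik genes (4.83%). These shares describe what the choice by level returned and were not tested.

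Their level in wild-type round spermatids spanned 1295 to 62.6 CPM with a median of 132 CPM, where the median over all genes was 1.65 CPM. The lowest chosen genes were 4931417E11Rik (62.9 CPM), 1700094D03Rik (62.8 CPM) and 4930415O20Rik (62.6 CPM), and the next Rik genes, which were not taken, were 2900092C05Rik (61.7 CPM), 1700020A23Rik (61.3 CPM) and 1700016C15Rik (61.2 CPM), so that the boundary does not mark a gap. The 200 genes are 10.4% of the Rik genes and held 79.3% of all Rik counts in wild-type round spermatids. A further 2993 genes with other names reached the level of the 200th. They are used below as the other genes of the same level, which share only the lower bound with the 200. Their levels have no upper limit and were not matched to those of the 200.

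Together the 200 genes took 4.23% ± 0.14 (SD, n = 3) of the counts on genes in wild-type round spermatids and 4.23% ± 0.16 (SD, n = 3) in KO round spermatids. The share was 2.44% ± 0.08 in wild-type and 2.35% ± 0.02 in KO pachytene spermatocytes, and 3.97% ± 0.21 in wild-type and 4.08% ± 0.25 in KO condensing spermatids (SD, n = 3 each). Wild-type spermatozoa gave 2.94% and 2.63%, and the KO spermatozoa library gave 1.10%. Every round and condensing spermatid library lay above every pachytene and spermatozoa library. In the wild type the values in round spermatids chose the genes, so the height of that group is a description. The median coefficient of variation of single genes was 6.08% in wild-type round spermatids, where replicates 2 and 3 were very alike, 6.79% in KO condensing spermatids and 9.04% in KO round spermatids, and was widest in wild-type pachytene spermatocytes (19.6%).

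**Figure D1:**
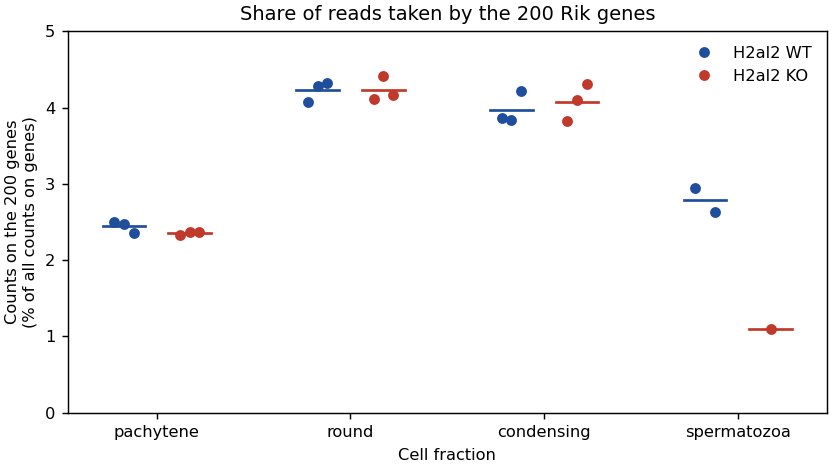
Share of all counts on genes (%, vertical axis) that fell on the 200 Rik genes in each library, by cell fraction and genotype; points are libraries and bars are group means. Round spermatids (means 4.23% in both genotypes) and condensing spermatids (3.97% and 4.08%) sit above pachytene spermatocytes (2.44% and 2.35%) and spermatozoa.

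The most abundant of the 200 genes fell into several kinds of time course. 4933411K16Rik, an intronless protein-coding gene at chr19:42052228-42053628 (GRCm38.p6), held the highest rank. It gave 1311, 1271 and 1303 CPM in wild-type round spermatids and 1280.1, 1475 and 1118 CPM in KO round spermatids. In condensing spermatids it gave 1913, 1778 and 2334 CPM in wild type and 1558, 1887 and 2262 CPM in KO, against 295, 306 and 142 CPM in wild-type and 181, 183 and 173 CPM in KO pachytene spermatocytes. The 3 KO fractions did not overlap, and neither did wild-type pachytene and condensing libraries; the wild-type round spermatid values chose the gene. Its exon overlaps an exon of Hoga1 on the same strand, and reads in the shared stretch could not be given to either gene.

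4930571K23Rik, at chr7:125368861-125371013 and of rank 4, had a similar course that went on into spermatozoa. Its levels were 249, 233 and 125 CPM in wild-type pachytene spermatocytes, 998, 1003 and 1025 CPM in round spermatids, 1796, 1678 and 2112 CPM in condensing spermatids and 3834 and 3324 CPM in spermatozoa. Apart from the round spermatid values, which chose the gene, the wild-type fractions ascended without overlap. Epididymis and macrophage markers were also high in spermatozoa, and their part in this last rise was not tested. The KO libraries gave 154, 164 and 149 CPM, 952, 1149 and 880.3 CPM and 1809, 2335 and 2371 CPM in the first 3 fractions, and 680.5 CPM in the KO spermatozoa library, which lay far below both wild-type ones. 1700009N14Rik (rank 8) differed from it in this last point, with 1269.9 and 1139 CPM in wild-type and 1164 CPM in KO spermatozoa. It also did not clearly rise into wild-type spermatozoa. Wild-type condensing spermatids gave 943, 958 and 1423 CPM, which overlap, and the change was not called (0.14 ± 0.19, log2 fold change and SE).

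Others were already abundant before meiosis ended. C530008M17Rik, now named Cracd, a regulator of actin capping, and 1700010I14Rik were high in pachytene spermatocytes, and fell between round and condensing spermatids. Cracd gave 863, 929.9 and 940.2 CPM in KO pachytene spermatocytes, 806, 837 and 801 CPM in KO round spermatids and 632, 592 and 623 CPM in KO condensing spermatids. In 1700010I14Rik the same KO fractions gave 673, 805 and 812 CPM, 665, 626 and 784 CPM and 483, 435 and 418 CPM. The KO round spermatid CPM of Cracd lay just below the pachytene CPM and that of 1700010I14Rik overlapped it, neither gene passed the test between these fractions (-0.01 ± 0.10 and 0.01 ± 0.11, log2 fold change and SE), and the condensing values lay below both. Between these extremes were 4922502D21Rik, now the C-type lectin family gene Clec2m (rank 2), 4930453N24Rik (rank 3), the transcribed pseudogene 1700123L14Rik (rank 5), 2610318N02Rik (rank 6) and 1700003E16Rik (rank 9), which were all higher in KO round spermatids than in KO pachytene spermatocytes, by 2.84 ± 0.13 log2 units (± SE) in 2610318N02Rik at most and 0.72 ± 0.11 in 1700123L14Rik at least.

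Levels can be set side by side only per exon length, which GENCODE gives for all but 2 of the 200 genes (median 1804.5 bp, range 354 to 32279 bp). On the scale of CPM per kb of exon in wild-type round spermatids the median was 76.5 and the range 7.05 to 939. 4933411K16Rik stayed first at 939 CPM per kb. It was followed by 1700019M22Rik, a non-coding RNA pseudogene with 354 bp of exon, at 920 CPM per kb, and by Clec2m at 631 CPM per kb. Ranking all Rik genes of known length on this scale would retain 157 of the 200.

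In the KO libraries, which had no part in the choice, most of the 200 genes rose from pachytene spermatocytes to round spermatids. By edgeR's quasi-likelihood test (adjusted p under 0.05 over all genes, n = 3 per group), 152 rose, 23 fell and 25 did not pass. Over all 13877 genes tested, 36.5% were called higher and 38.4% lower. Among the 2993 other genes that reach the same level in wild-type round spermatids, 54.6% were called higher and 24.4% lower. The median log2 fold change was 1.79 in the 200 genes, 0.35 in the other abundant genes and 0.00 in all genes. 122 of the 200 were at least 2-fold higher and 5 at least 2-fold lower. Such counts were not made for other genes. Over all genes the lower and upper quartiles of the log2 fold change were -0.92 and 1.08, so large changes were common there too. All 200 passed the filter on low counts. The summed peritubular myoid cell markers were also higher in KO round (304 to 390 CPM) than in KO pachytene libraries (65.3 to 84.5 CPM), with none of the 7 at 0, as were the macrophage markers (17.01 to 22.8 against 3.28 to 3.58 CPM), and their part in the result was not tested. Scaled to library size alone, the median of all genes moved to -0.15 and that of the 200 to 1.64, with 147 called higher and 28 lower. Genes picked for a high level in wild-type round spermatids have a high level in KO round spermatids too where the genotypes are alike. The set above the same lower bound, and not all genes, is therefore the nearer background, although it was not matched in level.

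**Figure D2:**
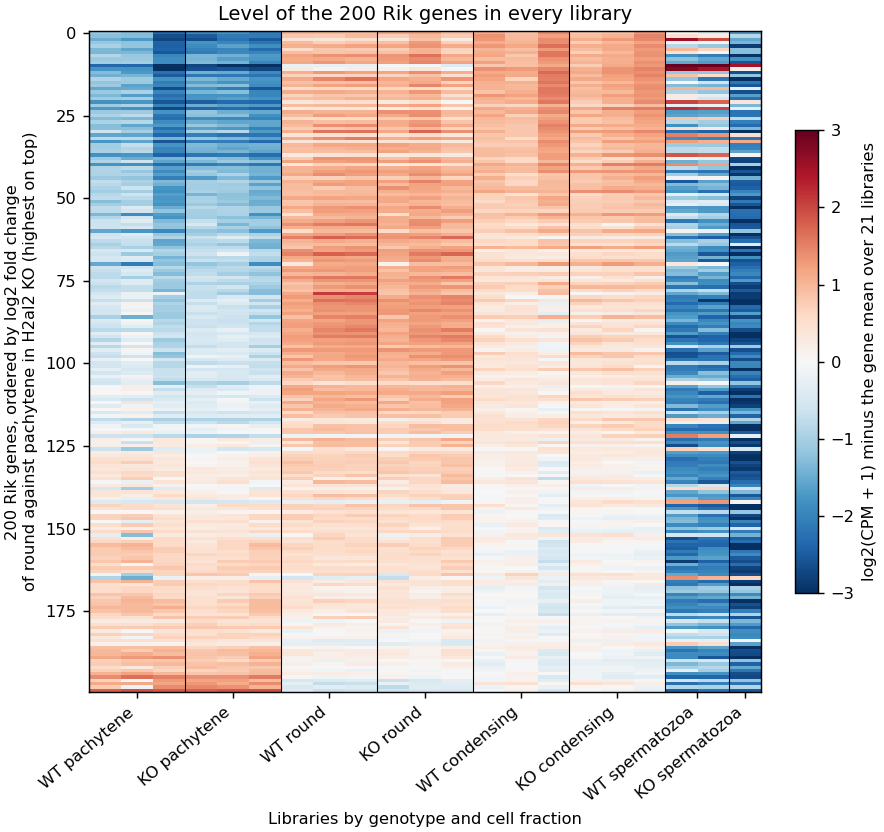
Level of the 200 Rik genes (rows) in the 21 libraries (columns, grouped by genotype and fraction), as log2(CPM + 1) minus each gene's mean over all libraries; rows run from the highest to the lowest log2 fold change of KO round against KO pachytene. The upper rows are low in pachytene spermatocytes and high in round and condensing spermatids, the lowest rows are the reverse, and most rows are low in spermatozoa.

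Of the 164 genes from testis plates 135 rose (82.3%) and 13 fell (7.93%), with a median of 2.03. Of the 36 genes from other plates 17 rose (47.2%) and 10 fell (27.8%), with a median of 0.16. The other genes of the same level gave 54.6% and 24.4%, so the genes from other plates did not rise more often than these. The groups were not compared by a test. Protein-coding genes (124 rose and 19 fell of 158, median 1.85) and long non-coding RNAs (21 rose and 4 fell of 32, median 1.48) both rose more often than they fell, and of the other 10 genes 7 rose and none fell.

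The largest rise among the 200 genes was in 1700042G07Rik, a short protein-coding gene at chr4:116173372-116174297. It gave 18.1, 19.8 and 15.8 CPM in KO pachytene and 161, 168 and 133 CPM in KO round spermatids, which do not overlap, a log2 fold change of 3.26 ± 0.16 (SE; edgeR adjusted p = 6.48e-13). The long non-coding RNA 1700027A15Rik (chr1:73016036-73025508) went from 50.2, 66.3 and 66.8 to 482, 573 and 501 CPM, a log2 fold change of 3.24 ± 0.17 (SE). Another long non-coding RNA, 1700009J07Rik (chr10:77893420-77896111), went from 11.2, 15.6 and 12.4 to 98.4, 139.9 and 89.9 CPM, by 3.22 ± 0.19 (SE) on the log2 scale. All 3 were also low in wild-type pachytene spermatocytes, where 1700042G07Rik gave 31.8, 29.1 and 13.4 CPM. 1700042G07Rik shares exon sequence on its strand with Gm49337.

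The genes that fell included 1 long non-coding RNA with a marked fall. 1700029M20Rik (chr4:135626655-135630198) gave 597, 641 and 651 CPM in KO pachytene spermatocytes and 115, 123 and 123 CPM in KO round spermatids. Its log2 fold change was -2.23 ± 0.10 (SE; edgeR adjusted p = 4.62e-13), the lowest of the 200, and in KO condensing spermatids, where it was called higher than in round spermatids (0.38 ± 0.10, SE), it was still far below pachytene spermatocytes at 173, 160.0 and 141 CPM. 4932438A13Rik (chr3:36863063-37053033), whose human counterpart is a large bridge-like lipid transfer protein, went from 1423, 1355 and 1085 to 304, 409 and 403 CPM, by -1.63 ± 0.13 (SE). 9430020K01Rik, now Jcad, known from the cell junctions of endothelium, went from 259, 228 and 279 to 89.3, 78.1 and 81.3 CPM, by -1.47 ± 0.10 (SE). In each of the 3 the fractions did not overlap.

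RefSeq gives promoters, from 250 bases before to 50 bases after a start, for 162 of the 200 genes. The 250 bases upstream of the starts of the 3 genes with the largest rise, which were picked for it, are shown first (GRCm38.p6, plus strand, 5′ to 3′; for 1700027A15Rik the first of its starts). They lie at chr4:116173122-116173371, chr1:73015786-73016035 and chr10:77893170-77893419. Capitals mark TGACG, the short form of the element bound by CREB and CREM, factors known from spermatids.
1700042G07Rik: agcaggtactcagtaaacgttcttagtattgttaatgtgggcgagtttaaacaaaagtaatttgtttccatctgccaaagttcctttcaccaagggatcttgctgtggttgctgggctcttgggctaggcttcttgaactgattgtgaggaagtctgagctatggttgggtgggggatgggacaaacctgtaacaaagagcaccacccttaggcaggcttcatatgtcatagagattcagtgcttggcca
1700027A15Rik: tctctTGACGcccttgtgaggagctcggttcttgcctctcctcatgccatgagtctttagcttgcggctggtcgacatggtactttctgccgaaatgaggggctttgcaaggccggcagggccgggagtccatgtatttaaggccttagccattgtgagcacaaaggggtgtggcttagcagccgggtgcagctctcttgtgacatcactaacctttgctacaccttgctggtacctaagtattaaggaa
1700009J07Rik: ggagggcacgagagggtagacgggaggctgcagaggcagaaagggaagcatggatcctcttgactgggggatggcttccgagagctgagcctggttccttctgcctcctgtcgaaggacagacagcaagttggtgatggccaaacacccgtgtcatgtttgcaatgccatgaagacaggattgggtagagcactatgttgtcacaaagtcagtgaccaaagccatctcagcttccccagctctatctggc

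Promoters and not genes are counted here, and 26 of the 162 genes have more than 1 promoter. The full element, TGACGTCA, was found in none of the 148 promoters of genes that rose in KO round spermatids and in 3 of the 28 promoters of genes that fell. These belong to D430042O09Rik (chr7:125707620-125707869) and to a pair of overlapping starts of 3830406C13Rik (the first at chr14:12283953-12284202). They are shown because they hold it, a choice made after the values were seen, with TGACGTCA in capitals at -67 and -42 from the start.
D430042O09Rik: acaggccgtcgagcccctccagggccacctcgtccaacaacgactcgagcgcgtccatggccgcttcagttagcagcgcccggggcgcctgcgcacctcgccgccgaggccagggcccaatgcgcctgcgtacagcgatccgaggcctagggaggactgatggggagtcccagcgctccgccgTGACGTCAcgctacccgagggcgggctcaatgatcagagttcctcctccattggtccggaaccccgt
3830406C13Rik: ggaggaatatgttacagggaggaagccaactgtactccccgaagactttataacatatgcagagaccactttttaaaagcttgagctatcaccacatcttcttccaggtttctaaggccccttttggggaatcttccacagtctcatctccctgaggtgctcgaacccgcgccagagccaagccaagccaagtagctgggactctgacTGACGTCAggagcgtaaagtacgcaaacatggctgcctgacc

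Over all 32851 promoters, TGACGTCA was in 1.79%, on either strand, and over those of the 200 genes in 1.52%. TGACG, which TGACGTCA contains, was in 20.8% of all promoters, 21.2% of those of the 200 genes, 17.6% of those of risers and 39.3% of those of fallers. GTTGCC, the core of the sites of RFX factors of ciliated cells, was in 12.5% of all promoters and 19.2% of those of the 200 genes. It was in 29 of the 148 promoters of risers (19.6%) and 2 of the 28 promoters of fallers (7.14%). AACTGC, the core of the sites of MYB factors such as the A-MYB of pachytene spermatocytes, was in 13.7% and 17.2%. It was in 25 promoters of risers (16.9%) and 7 promoters of fallers (25%). These shares are descriptions of letters in a window. D430042O09Rik itself gave 249.5, 228 and 253 CPM in KO pachytene and 148, 144 and 154 CPM in KO round spermatids, a log2 fold change of -0.56 ± 0.09 (SE), without overlap. 3830406C13Rik went from 112, 113 and 99.02 to 69.4, 73.2 and 84.8 CPM, by -0.35 ± 0.11 (SE). Its exons overlap those of another gene on the same strand.

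Of the 59 genes that have been renamed, 43 rose (72.9%) and 8 fell from pachytene to round spermatids in the KO libraries, where 76% of the 200 genes and 54.6% of the other genes of the same level rose. All 4 Tex genes, so named for expression in testis, rose: Tex44 by 2.87 ± 0.15, Tex50 by 2.87 ± 0.17, Tex55 by 2.79 ± 0.13 and Tex48 by 2.61 ± 0.12 (log2 fold change, SE). H2bl1 (1700024P04Rik), an H2B variant of the testis, rose by 3.06 ± 0.16. Spaca9 (1700026L06Rik), a protein of the acrosome and the axoneme, rose by 2.35 ± 0.11, and Llcfc1 (1700034O15Rik), which sperm need for fusion with the egg, by 2.48 ± 0.11. Spem2 (4933402P03Rik), of the spermatid maturation family, rose by 2.87 ± 0.17, and Stpg3 (4933433C11Rik), a gene with sperm-tail repeats, by 2.43 ± 0.13. The renamed genes outside the Tex and Cfap families were picked for their known roles after their values were seen.

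Of 6 Cfap genes, whose products are associated with cilia and flagella, 4 rose, with Cfap97d1 (1700006E09Rik) at 2.23 ± 0.15, Cfap157 (1700019L03Rik) at 1.63 ± 0.10, Cfap206 (1700003M02Rik) at 0.62 ± 0.09 and Cfap161 (1700026D08Rik) at 0.40 ± 0.11. Cfap299 (1700007G11Rik, 0.21 ± 0.12) and Cfap298 (1110004E09Rik, -0.07 ± 0.12) did not pass. Cplane1 (2410089E03Rik), which is needed to build cilia, fell by 0.64 ± 0.09 (SE), and Iftap (B230118H07Rik), which binds intraflagellar transport proteins, by 0.23 ± 0.10 (SE). Micos13 (2410015M20Rik), a subunit of the complex of cristae junctions in mitochondria, rose by 1.61 ± 0.11, and Atp5mpl (2010107E04Rik), a small protein of ATP synthase, by 1.39 ± 0.10. Jcad, Rexo5 (2610020H08Rik, an RNA exonuclease, -0.32 ± 0.10) and Taf7l2 (4933416C03Rik, -0.47 ± 0.11) were among those that fell.

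From round to condensing spermatids in the KO libraries, changes were smaller and mostly downward. edgeR called 21 of the 200 higher and 114 lower, and 65 did not pass, with a median log2 fold change of -0.36 against 0.03 for all genes and -0.28 for the other genes of the same level. Over all genes 29.7% were called higher and 24.5% lower, and over the other genes of the same level 9.92% and 52.9%. The shares of the 200 genes, 10.5% and 57%, were near those of the other genes of the same level. This comparison shares the KO round spermatid libraries with the one before it, and several marker lists were higher in KO condensing than in KO round spermatids. The Sertoli cell markers summed to 403 to 538 against 36.9 to 47.4 CPM, the Leydig cell markers to 89.9 to 139 against 6.36 to 10.7 CPM, the red blood cell markers to 18.9 to 24.3 against 0.406 to 1.38 CPM and the pachytene spermatocyte markers to 1422 to 1564 against 955 to 1146 CPM. Their part in the result was not tested. Of the 200 genes, 4 were at least 2-fold higher and 7 at least 2-fold lower, a count not made for other genes. The quartiles over all genes were -0.37 and 0.65.

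The genes that rose most here were 5031439G07Rik, 4930571K23Rik and 1700012A03Rik. 5031439G07Rik (chr15:84943936-84987971), a protein-coding gene that overlaps the miRNA gene Mir1249, went from 139, 135 and 106 CPM in KO round spermatids to 234, 307 and 344 CPM in KO condensing spermatids, a log2 fold change of 1.22 ± 0.14 (SE; edgeR adjusted p = 8.47e-07). 1700012A03Rik (chr6:32050288-32059062) went from 239, 275 and 217 to 449.8, 545 and 602 CPM, by 1.12 ± 0.12 (SE). The value for 4930571K23Rik, whose levels are given above, was 1.12 ± 0.13 (SE).

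Those that fell most were 1700001F09Rik (chr14:43342384-43347811), from 125, 138 and 165 to 60.4, 58.9 and 61.5 CPM and by -1.26 ± 0.12 (SE), 4930562C15Rik (chr16:4835416-4867691), by -1.08 ± 0.09 (SE), and 4921501E09Rik, now the pseudogene Phf8-ps, by -1.08 ± 0.13 (SE). The KO round and condensing libraries did not overlap in any of the 3. Of the Cfap genes, 5 of 6 fell at this step and none rose, where 57% of the 200 genes and 52.9% of the other genes of the same level fell. Of the Tex genes, Tex44 rose (0.39 ± 0.13) and the other 3 did not pass. Fam243 (4930563D23Rik, 0.95 ± 0.11), Spem2 (0.80 ± 0.16), Ppp1r14bl (4933415F23Rik, 0.69 ± 0.11) and Jcad (0.66 ± 0.10) were the other renamed genes that rose.

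**Figure D3:**
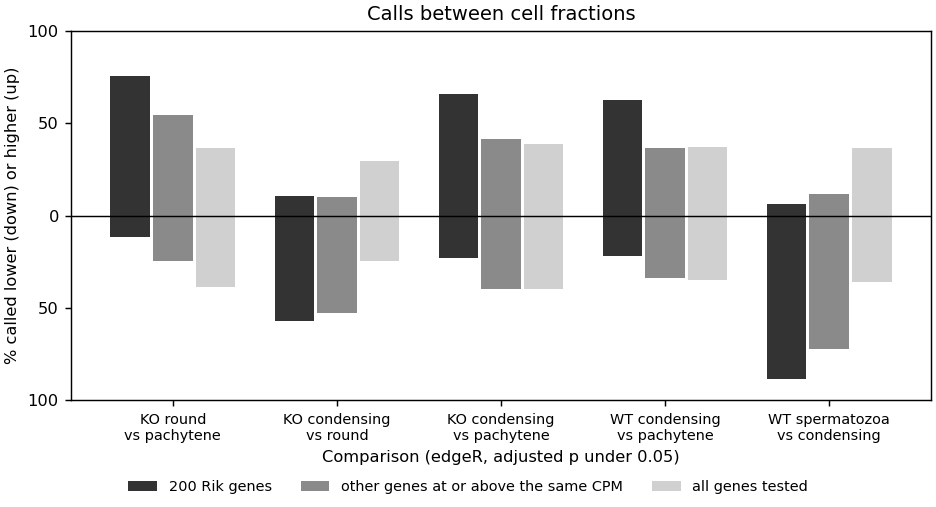
Share of genes called higher (upward bars, %) and lower (downward bars, %) by edgeR at an adjusted p under 0.05 in 5 comparisons of cell fractions, for the 200 Rik genes, the 2993 other genes at or above the same CPM in wild-type round spermatids, and all genes tested. The 200 genes were called higher in 76% and lower in 11.5% in KO round against pachytene, and lower in 88.5% in wild-type spermatozoa against condensing spermatids.

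Condensing and pachytene libraries of the 2 genotypes allow the same change to be read in separate libraries of each genotype, without the libraries that chose the genes. In the wild type 125 of the 200 were higher in condensing spermatids, 44 were lower and 31 did not pass, where 37% of 13465 genes were called higher and 34.9% lower. In KO 132 were higher, 46 lower and 22 did not pass, where 38.6% and 39.5% of all genes were called. Median log2 fold changes were 0.99 in the wild type and 1.15 in KO, near 0 for all genes (-0.01 and -0.02) and for the other genes of the same level (-0.03 and -0.01). Of these other genes, 36.6% were called higher and 33.9% lower in the wild type, and 41.5% and 39.7% in KO. The 125 genes called higher in the wild type were all called higher in KO, 41 were lower in both, and none was called in opposite directions. The log2 fold changes had the same sign in 192 genes, and their median absolute difference was 0.22. Such counts of shared calls and signs were not made for all genes or for the other genes of the same level. They therefore do not set the 200 genes apart.

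**Figure D4:**
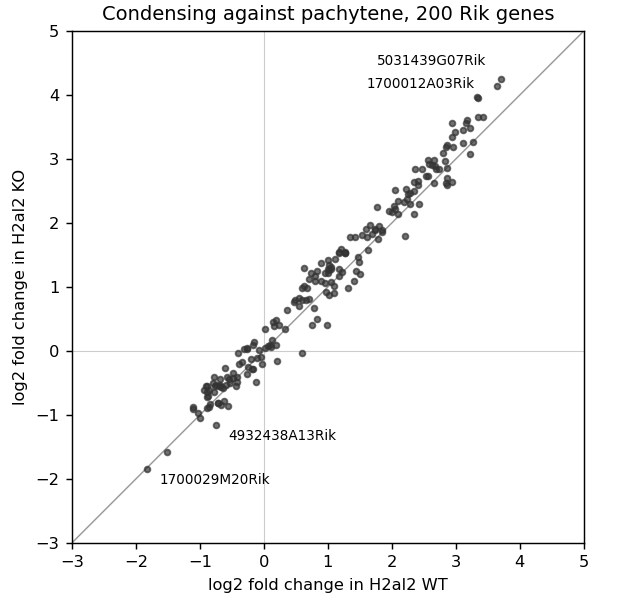
Log2 fold change of condensing spermatids against pachytene spermatocytes for the 200 Rik genes in wild type (horizontal axis) and H2al2 KO (vertical axis), 3 libraries per group; each point is a gene and the line marks equal values. The genes run from 1700029M20Rik (-1.83 and -1.85) to 5031439G07Rik (3.71 and 4.25), and 192 have the same sign in both.

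At the top of both were 5031439G07Rik, with 26.05, 26.2 and 16.1 CPM in wild-type pachytene and 245, 259 and 307 CPM in wild-type condensing spermatids (log2 fold change 3.71 ± 0.23 in wild type and 4.25 ± 0.17 in KO, SE), and 1700012A03Rik, with 61.9, 61.3 and 24.7 and 557, 520.0 and 595 CPM (3.64 ± 0.32 and 4.14 ± 0.15). Next came Spem2 in the wild type (3.42 ± 0.27) and 1700009J07Rik in KO (3.97 ± 0.19). At the bottom were 1700029M20Rik (-1.83 ± 0.17 and -1.85 ± 0.10) and 1700029P11Rik (chr15:81980540-81981563), with 186, 217 and 196 CPM in wild-type pachytene and 64.9, 74.9 and 48.8 CPM in wild-type condensing spermatids (-1.52 ± 0.16 and -1.58 ± 0.11). They were followed by 1700010B08Rik in the wild type (-1.12 ± 0.14) and 4932438A13Rik in KO (-1.16 ± 0.13). The wild-type pachytene libraries did not all agree in such genes: 4932438A13Rik gave 909, 466 and 1405 CPM in replicates 1, 2 and 3, and replicate 2 lay within the range of wild-type condensing spermatids (467, 548 and 457 CPM). The Sertoli cell markers were higher in condensing spermatids of both genotypes (537 to 671 CPM in wild type, against 49.2 to 54.5 CPM in pachytene spermatocytes), as were the peritubular (319 to 406 against 63.8 to 99.98 CPM in wild type) and macrophage markers (27.4 to 35.3 against 2.74 to 4.76 CPM in wild type), and their part in the result was not tested.

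In the wild type, the round spermatid libraries chose the genes, so its steps through that stage are given without a test. The log2 ratio of mean CPM in round to that in pachytene spermatocytes had a median of 1.61, and 152 genes were higher in round spermatids. The ratio of condensing to round spermatids had a median of -0.39, and 151 genes were lower in condensing spermatids. Over the 4 fractions the highest wild-type mean was in pachytene spermatocytes for 47 genes, in round spermatids for 110, in condensing spermatids for 27 and in spermatozoa for 16. In KO it was in pachytene spermatocytes for 43, round spermatids for 121, condensing spermatids for 33 and spermatozoa for 3. The KO spermatozoa value has no replicate, and marker sums in that library differed from the wild type, as given below. The counts of the genotypes for spermatozoa are therefore not comparable. In the wild type, the choice by level in round spermatids favours a peak there, so the 110 genes are a description. Peak counts were not made for other genes in either genotype.

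In wild-type spermatozoa nearly all of the 200 genes were lower than in condensing spermatids: 177 fell, 13 rose and 10 did not pass (edgeR, 2 against 3 libraries). The background was 35.8% lower and 36.6% higher over 15116 genes, and 72.5% lower and 11.5% higher among the other genes of the same level. Median log2 fold changes were -1.93, 0.00 and -1.03, and 154 of the 200 were at least 2-fold lower. The 2-fold count was not made for other genes, and the quartiles over all genes were -1.10 and 1.25. The epididymis and macrophage markers given above were high in spermatozoa and at most 2.91 and 35.3 CPM in the earlier fractions. Sertoli cell markers (251 and 282 CPM in wild-type spermatozoa, against 537 to 671 CPM in wild-type condensing spermatids) and round spermatid markers (577 and 634 against 1777 to 1826 CPM) were lower. The part of these markers in the falls and in the rises was not tested.

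5031439G07Rik had the largest change of the 13 that rose. It gave 245, 259 and 307 CPM in wild-type condensing spermatids and 3240.0 and 3102 CPM in wild-type spermatozoa, a log2 fold change of 3.57 ± 0.18 (SE; edgeR adjusted p = 2.31e-13), and 786 CPM in the KO spermatozoa library. 1700012A03Rik went from 557, 520.0 and 595 to 1485 and 1190.4 CPM (1.29 ± 0.16, SE). 4932414N04Rik (chr2:68656791-68748532) went from 195, 268 and 186 to 548 and 433 CPM (1.21 ± 0.17, SE). The groups did not overlap in these 3 genes. Epididymis markers gave 2125 and 2347 CPM in wild-type and 617 CPM in KO spermatozoa. Macrophage markers gave 756 and 769 CPM in wild-type and 3572 CPM in KO spermatozoa. The part of such cells or transcripts in the rises was not tested. By level, 4930571K23Rik, 5031439G07Rik and 1700012A03Rik were the 3 highest of the 200 in wild-type spermatozoa. Ppp1r14bl, Fam243 and Spem2 were the renamed genes among those that rose.

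The deepest falls were in 1700019M22Rik, 4930407I10Rik and the long non-coding RNA 1700013D24Rik. 1700019M22Rik (chr12:96046621-96047222) went from 250.4, 207 and 303 to 23.8 and 21.3 CPM, by -3.47 ± 0.21 (SE; edgeR adjusted p = 7.77e-12). 4930407I10Rik (chr15:82059151-82066538), a protein-coding gene, went from 502, 451 and 619 to 55.1 and 50.8 CPM, by -3.28 ± 0.20 (SE). 1700013D24Rik (chr6:124347587-124357044) went from 73.4, 60.5 and 50.03 to 6.09 and 6.85 CPM, by -3.22 ± 0.24 (SE). All 6 Cfap and all 4 Tex genes fell, as did 88.5% of the 200 genes and 72.5% of the other genes of the same level. The KO spermatozoa library has no replicate, so its values stand without a test. The log2 ratio of its CPM to the wild-type mean had a median of -0.94 and was below 0 for 183 of the 200 genes. For this library such ratios were not summarized over other genes, so the count does not set the 200 genes apart. In that library the Sertoli cell markers summed to 1393 CPM (251 and 282 in wild type), the epididymis markers to 617 CPM and the elongating or condensing spermatid markers to 11756 CPM (34843 and 38123 in wild type), besides the macrophage sum given above, and their part in these ratios was not tested.

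**Figure D5:**
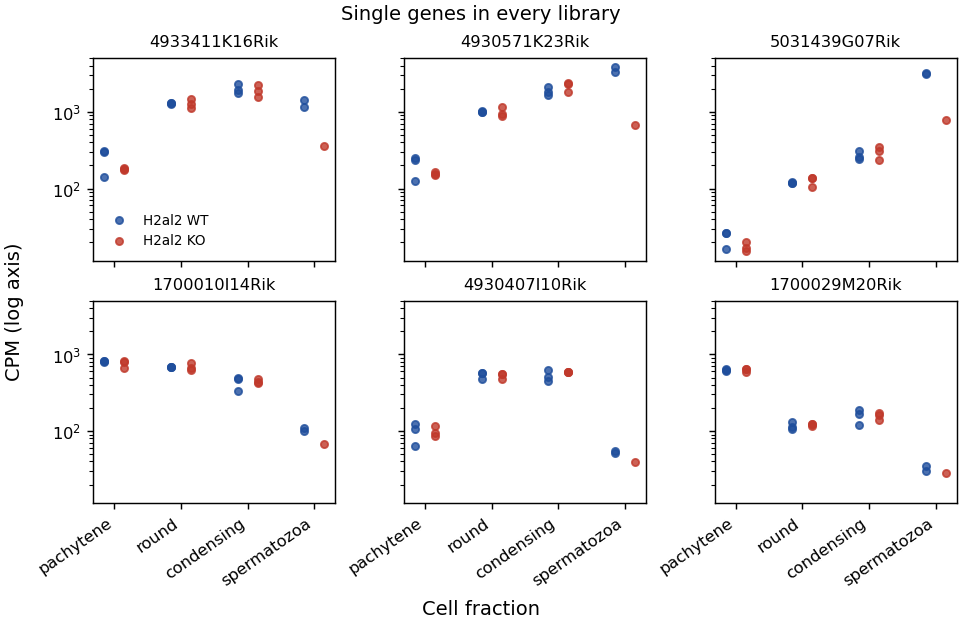
CPM (log axis) of single Rik genes in every library, by cell fraction; blue points are wild-type and red points H2al2 KO libraries. 4933411K16Rik, 4930571K23Rik and 5031439G07Rik climb through the spermatid fractions, 1700010I14Rik declines, 4930407I10Rik is high in both spermatid fractions and falls in spermatozoa, and 1700029M20Rik is highest in pachytene spermatocytes.

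None of the 200 genes was called between H2al2 KO and wild type. In pachytene spermatocytes edgeR called 0 of the 200 and 0 of 12236 genes (background 0%), with 7 of the 200 and 815 of all genes at an unadjusted p under 0.05. In condensing spermatids it called 0 of the 200 and 1 of 13734 genes, H2afb1 itself (0% higher and 0.00728% lower), with 22 of the 200 and 870 of all genes at an unadjusted p under 0.05. H2afb1 was left uncalled when the pachytene groups were compared, at a log2 fold change of -2.75 ± 0.37 (SE; edgeR adjusted p = 0.484). The pachytene comparison thus missed the loss of the H2A.L.2 gene, so its 0 calls do not show that the genotypes were alike there. In condensing spermatids only the large change of H2afb1 passed, so 0 calls among the 200 genes do not show likeness either. The DESeq2 Wald test called none of the 200 either. The median log2 fold changes of KO against wild type were -0.09 in pachytene spermatocytes and 0.08 in condensing spermatids. For the other genes of the same level they were -0.04 and 0.03, and for all genes 0.01 and -0.01. The interaction of genotype and stage, condensing minus pachytene, had a median of 0.24 on the log2 scale in the 200 genes. The median was 0.12 in the other genes of the same level and 0.05 in all genes. The interaction was called in 0 of the 200 and 0 of 14068 genes (0%), with 13 and 700 at an unadjusted p under 0.05. In round spermatids no test is given, because the wild-type libraries chose the genes. There 199 of the 200 log2 ratios of mean CPM lay within 0.5 of 0, from -0.94 to 0.35 with a median of 0.00. This count was not made for other genes.

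The genes nearest to a call differed between the fractions. In pachytene spermatocytes 1700001J03Rik (chr5:146182441-146190196) gave 29.4, 37.7 and 38.3 CPM in wild type and 25.3, 20.5 and 17.03 CPM in KO, without overlap, at a log2 fold change of -0.72 ± 0.17 (SE; edgeR adjusted p = 0.656). It was also the gene with the lowest ratio in round spermatids, where the wild type gave 99.7, 189 and 186 CPM and KO 78.4, 89.7 and 79.2 CPM. The first wild-type library there lay nearer to the KO libraries than to the other wild-type ones. In condensing spermatids it gave 55.7, 51.4 and 83.4 CPM in wild type and 43.9, 47.97 and 51.6 CPM in KO, which overlap by a narrow margin, at -0.38 ± 0.17 (SE; edgeR adjusted p = 0.774).

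The neighbouring genes 4932414N04Rik and 4933409G03Rik, 40328 bp apart on chromosome 2, came next in pachytene spermatocytes. 4932414N04Rik gave 112, 74.7 and 180.3 CPM in wild type and 245, 240.2 and 169 CPM in KO (0.86 ± 0.30, SE), and 4933409G03Rik gave 59.8, 41.6 and 64.9 and 88.98, 82.4 and 65.4 CPM (0.54 ± 0.19, SE), both with an edgeR adjusted p of 0.656. The groups overlapped in 4932414N04Rik and were separated by under 1 CPM in 4933409G03Rik.

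In condensing spermatids the long non-coding RNA 1700008J07Rik (chr7:127510438-127512869) came nearest, with 115, 125 and 116 CPM in wild type and 143, 169 and 156 CPM in KO, without overlap, at 0.43 ± 0.11 (SE; edgeR adjusted p = 0.446). 4930558C23Rik followed at 0.47 ± 0.13 (SE; edgeR adjusted p = 0.483) and 1700013D24Rik at 0.41 ± 0.12 (SE; edgeR adjusted p = 0.532). 1700008J07Rik, 1110032A03Rik and Fam24b (1700007K09Rik) had the smallest p in the interaction, and none passed. Wild-type and KO libraries did not overlap in 24 genes that were higher and 3 that were lower in KO condensing spermatids, where all genes gave 3.95% and 7.15%, and in 6 higher and 10 lower in KO pachytene spermatocytes, where all genes gave 4.94% and 6.82%.

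The comparison in pachytene spermatocytes rested on 1 library. Without wild-type replicate 3, 1 of the 200 genes (4932414N04Rik, log2 fold change 1.27) was called higher and 17 lower in KO. The median log2 fold change of the 200 genes was -0.18. Over all genes there were 243 calls, where 12236 genes had been tested with all libraries. A share over all genes, by direction, was not computed for this fit, so these calls are not read as particular to the 200 genes. The 17 included 1700027A15Rik (-0.91), 1700009J07Rik (-0.85), 1700012A03Rik (-0.83) and 4933411K16Rik (-0.70). The summed CPM of 12 markers of elongating or condensing spermatids, such as Prm1 and Tnp1, was 6540, 6197 and 2869 in wild-type pachytene replicates 1, 2 and 3 and 3767, 3974 and 3569 in the KO libraries, so that replicates 1 and 2 were the highest and replicate 3 the lowest. The part of these cells or transcripts in the 17 calls was not tested.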

How the data were processed

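Total RNA of fractionated spermatogenic cells was sequenced in 21 mouse libraries, which were grouped by cell fraction and genotype from the sample labels. The authors depleted ribosomal RNA, prepared stranded libraries, aligned paired-end reads to mm10 with STAR 2.7.11b, counted them with HTSeq over exons (reverse strand, strict intersection, no multiply aligned reads) and deposited raw counts per gene, without normalization or pooling. Reads that fit several places or several genes were not counted, which lowers genes with near-identical copies and overlapping genes. The 5 rows that name no gene (34.6% to 57.7% of the counted reads) were left out. CPM are counts divided by the total on genes. A listed 0 leaves room for at most 3 counts (0.366 to 1.08 CPM). The lowest count of any of the 200 genes in a library was 3.

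The 200 genes, the gene groups and the marker lists were chosen with earlier results of these data known. Differences were tested with edgeR 4.0.16 (R 4.3.3; quasi-likelihood test, TMM normalization, filterByExpr, Benjamini-Hochberg adjustment over all genes, call at 0.05), on the 9 KO libraries of 3 fractions for the KO stage changes, and otherwise on the libraries compared. Changes that use the wild-type round spermatid libraries were not tested, since those libraries chose the genes. The procedure was tested on simulated data. Alternatives were DESeq2 size factors, library size only, the DESeq2 Wald test (DESeq2 1.42.0), a minimum of 10 counts in every library, no filter, the replicate number as a block, a fit on all libraries of the replicated groups, and each replicate left out.

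Genes named are the 10 most abundant, the 3 per direction with the largest called change in each stage comparison (mean of at least 10 CPM, no overlap between groups), the 3 with the smallest p where nothing was called, the 3 highest in spermatozoa or per kb, and the neighbours of the boundary at rank 200. Gene types, positions and promoters are from RefSeq (GRCm38.p6), and exon lengths and overlaps from GENCODE M21, since RefSeq exon lengths were not used here. Protein sequences were not used here. Of the marker lists that the text gives in part, pachytene markers summed to 2278 to 3578 CPM in pachytene spermatocytes and at most 1609 CPM elsewhere, and over all libraries Leydig markers gave 6.36 to 231 CPM, peritubular markers 52.5 to 406 CPM and red blood cell markers 0 to 52.7 CPM. Spermatogonium markers gave 31.7 to 80.7 CPM.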

Additional observations from a re-analysis of the deposited data

How the results depend on the processing

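Of 236 counts of called genes recomputed under the alternatives, 234 stayed within 1.5 times the reported count, and no gene was called in the opposite direction under any alternative. The exceptions were those of KO against wild type in pachytene spermatocytes without wild-type replicate 3, given above. When each library was left out in turn, KO round against pachytene gave 149 to 152 genes higher and 19 to 23 lower, KO condensing against round 19 to 27 and 99 to 124, KO condensing against pachytene 129 to 132 and 42 to 48, wild-type condensing against pachytene 116 to 125 and 38 to 44, and wild-type spermatozoa against condensing 9 to 15 and 172 to 180. KO against wild type in pachytene spermatocytes gave 0 to 1 higher and 0 to 17 lower, and in condensing spermatids 0. The 200 genes chosen again shared 194 to 199 with the first choice without 1 library, 194 from the KO round spermatid libraries and 199 with the alike replicates 2 and 3 averaged.

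Of 953 values of 63 single results, 933 kept their direction and call, 12 reversed, 6 lost and 2 gained a call. The reversals were near 0 and without a call. 1700010I14Rik in KO round against pachytene went to -0.14 with library size only, -0.10 without KO pachytene replicate 1 and -0.069 without KO round replicate 3 (range without 1 library -0.10 to 0.064). C530008M17Rik in the same comparison went to 0.039 with DESeq2 size factors, 0.013 with the DESeq2 Wald test and 0.10 with at least 10 counts in every library, and above 0 without KO pachytene replicate 2 or 3 or KO round replicate 1 or 3 (range without 1 library -0.075 to 0.029). In KO condensing against round, 1700003E16Rik went to 0.019 without KO condensing replicate 1 (range -0.22 to 0.019) and 1700019M22Rik to 0.051 without KO round replicate 2 (range -0.29 to 0.051). In that comparison 2610318N02Rik, lower at an adjusted p of 0.0335 (edgeR), lost its call in 6 alternatives, among them those without KO condensing replicate 1 or 2 or KO round replicate 1 or 2 (adjusted p 0.055 to 0.176 without 1 of these libraries), and 4922502D21Rik gained one without KO round replicate 1 (-0.28).

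The replicate numbers were not treated as pairs, since the animals behind each replicate are not given. Same-numbered libraries did not clearly deviate together (correlations -0.24 to 0.21, and no comparison with 3 pairs had every one over 0.1). With at most 3 libraries per group, these correlations cannot show whether samples were paired. In the fit with a replicate block, 152 genes were higher and 21 lower in KO round against pachytene, 23 and 114 in KO condensing against round, 132 and 46 in KO condensing against pachytene, 125 and 42 in wild-type condensing against pachytene, 15 and 180 in wild-type spermatozoa against condensing, and 0 between genotypes and in the interaction. Depth limits the spermatozoa most, with 2772995 to 3450580 counts.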
